A study of Homo sapiens with 12 samples.

Results

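The integrated stress response and serine synthesis were followed through 10 genes, ATF4, DDIT3, ATF3, TRIB3, ASNS, CHAC1, PPP1R15A, PSAT1, PHGDH and SHMT2, out of the 20595 genes counted. They were chosen by name, as effectors and enzymes of a single pathway, with earlier results of these data known, and matched to the counts by Ensembl identifier. The share of all genes set beside a count of them is therefore a description and not a test. Each of the 10 had its own entry and no entry shared its counts with another gene. RNA-seq libraries came from A549 and H1792, established human lung adenocarcinoma cell lines that the study describes as MDM2-amplified, A549 with wild-type p53 and H1792 with mutant p53. Cells of each line received either the vehicle DMSO or RG7112, a small molecule of the nutlin family that blocks the binding of MDM2 to p53, at 1 μM for 48 h according to the labels (the column names of the counts give 0.1 μM), with 3 libraries in each of the 4 groups. The study addressed how inhibition of MDM2 alters expression in lines of different p53 status. Each p53 status is represented by a single line, so p53 status and any other difference between the lines cannot be told apart.

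In the integrated stress response, kinases that sense amino acid shortage, unfolded protein, viral RNA or lack of heme phosphorylate the translation factor eIF2α, which lowers general protein synthesis and favours translation of ATF4. ATF4 is a transcription factor that binds C/EBP-ATF response elements and raises genes for amino acid import, amino acid synthesis and tRNA charging, together with feedback regulators of the response. The serine pathway is among its known targets: PHGDH and PSAT1 make serine from a glycolytic intermediate, and SHMT2 splits serine in mitochondria to glycine and a one-carbon unit for nucleotide synthesis. ATF4 is largely set at translation, so mRNA levels such as those given here do not measure its protein.

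Promoter sequence was examined in 300-base windows around RefSeq start sites on GRCh38.p14, 250 bases before and 50 after the start, which were held for 9 of the 10 genes (SHMT2 had none). The letters TGATGNAA, the core of the C/EBP-ATF response element, were found on either strand in 3.62% of all 35116 windows, and the CRE letters TGACGTCA in 1.85%. A TGATGNAA match was in 1 of 2 windows of ATF3, 1 of 2 of ASNS and the 1 window of CHAC1. The 1 window of PPP1R15A held a CRE match. They are shown because they are the only matches to these letters among the windows of the members. Each is written 5′ to 3′ along the strand of its gene with the match in capitals, and in CHAC1 the match lies on the opposite strand.
ASNS, chr7:97872458-97872487, minus strand, first base of the match at -68 from the start site: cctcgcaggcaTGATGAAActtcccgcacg
ATF3, chr1:212565205-212565234, plus strand, at -191: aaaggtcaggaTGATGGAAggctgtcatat
CHAC1, chr15:40953251-40953280, plus strand, at -209: ctcccctgccgTTGCATCActcctgccagg
PPP1R15A, chr19:48872352-48872381, plus strand, at -58: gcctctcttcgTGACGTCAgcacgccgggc
The windows of ATF4, DDIT3, TRIB3, PSAT1 and PHGDH held neither set of letters, which says only that they are not in these windows. PSAT1 and PHGDH are the genes whose responses differed between the cell lines, so the 250 bases before their start sites are given in full, with CCAAT letters in capitals. CCAAT, on either strand, was in 34.6% of all windows, 3 times in that of PSAT1 and 1 time in that of PHGDH.
PSAT1, chr9:78296875-78297124, plus strand: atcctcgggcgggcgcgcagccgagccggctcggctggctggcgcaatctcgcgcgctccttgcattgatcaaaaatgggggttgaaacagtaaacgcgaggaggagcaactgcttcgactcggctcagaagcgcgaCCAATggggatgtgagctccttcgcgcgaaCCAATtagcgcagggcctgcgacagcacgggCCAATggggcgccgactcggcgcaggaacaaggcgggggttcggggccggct
PHGDH, chr1:119711684-119711933, plus strand: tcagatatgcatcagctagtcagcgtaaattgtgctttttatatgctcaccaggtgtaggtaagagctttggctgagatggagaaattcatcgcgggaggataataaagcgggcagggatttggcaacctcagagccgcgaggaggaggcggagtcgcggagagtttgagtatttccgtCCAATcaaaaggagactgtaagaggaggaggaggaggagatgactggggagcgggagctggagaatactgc
The bases of PSAT1 were 65.6% G or C and those of PHGDH 51.2%. A match is a description of sequence and not evidence that a factor binds there.

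The libraries held 2011916 to 6218825 counts, so that 3 counts corresponded to 0.465 to 1.43 CPM, normalised counts scaled to a common library size and composition, the unit of all levels below. CDKN1A and MDM2, transcriptional targets of p53, rose in A549 (log2 fold change 3.58 and 2.99, adjusted p = 0.0252 and 0.0102, edgeR quasi-likelihood test with Benjamini-Hochberg adjustment). CDKN1A in H1792 was 7.64 ± 6.09 CPM in DMSO and 7.89 ± 3.61 CPM with RG7112 (SD, n = 3), and its log2 fold change of 0.15 did not pass the test (adjusted p = 0.882), nor did the -0.05 of MDM2 (adjusted p = 0.928). The A549 call of CDKN1A was lost without any 1 of the 3 A549 DMSO libraries (highest adjusted p = 0.0960, without replicate 2) and that of MDM2 without DMSO replicate 2 (adjusted p = 0.0534). Keratin mRNAs were abundant in both lines, with the summed level of 6 epithelial markers at 14484 to 18967 CPM in A549 DMSO, 17110.3 to 24068 CPM in A549 with RG7112, 1818 to 2185 CPM in H1792 DMSO and 1069 to 1337 CPM in H1792 with RG7112. Of these markers KRT19 rose 2.40-fold in A549 (adjusted p = 0.00602), whereas KRT7, KRT8, KRT18 and KRT19 fell in H1792, by 1.46-fold to 2.06-fold (adjusted p = 0.00437 to 0.0371), and the part of this shift in the results was not tested. In contrast to the keratins, EPCAM was at or below 6.23 CPM in every library and CDH1 averaged 0.429 ± 0.556 CPM in H1792 DMSO. The lung lineage markers NKX2-1, SFTPB and SFTPC were at or near 0 in both lines, while NAPSA, the fourth of them, was at 1.49 to 5.70 CPM in A549 and at most 0.872 CPM in H1792, and was called 5.88-fold higher in A549 in DMSO (adjusted p = 0.0196). The endothelial markers PECAM1 and VWF summed to at most 0.477 CPM. Among leukocyte markers CD3E had no count in any library and CD14 averaged 22.00 ± 2.94 CPM in A549 DMSO, and among fibroblast markers COL1A1 averaged 279 ± 23.9 CPM in H1792 DMSO with COL3A1 and DCN below 1 CPM in every group mean. In such bulk RNA, fewer cells of a type and less RNA per cell cannot be told apart.

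The A549 libraries numbered 3 stood apart from those numbered 1 and 2 in both treatments, with a chi-square per degree of freedom of 17.2 to 25.6 against 5.38 to 10.5 for the other replicate pairs. Across 9914 genes, the difference between A549 DMSO replicates 1 and 2 and replicate 3 had a Spearman correlation of 0.52 with the response of H1792 to RG7112, a description across genes that are not independent. The responses also followed base composition across genes, since that of H1792 had a Spearman correlation of -0.48 with the GC content of the genes, and that of A549 one of 0.25, again as descriptions. The part of the replicate 3 libraries and of base composition in the results was not tested, other than by leaving those libraries out and by a correction for GC content. Neither the labels nor the methods say that the replicates were separate cultures, so p-values measure the spread between these libraries, which may be technical.

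Without drug, most of the 10 genes were lower in A549 than in H1792. In DMSO, 6 of the 10 were lower in A549 and PSAT1 was higher, which makes 7 of 10 called at an adjusted p under 0.05, beside 47.5% of all 11666 genes tested in that comparison (25.6% higher and 22% lower). With RG7112, PHGDH and SHMT2 fell in A549, 2 called of 9 tested, beside 8.38% of 10739 genes (4.35% higher and 4.03% lower). In H1792 PSAT1 rose while DDIT3, ASNS, PHGDH and SHMT2 fell, 5 called of 10, beside 34.1% of 9914 genes (17.7% higher and 16.5% lower). The responses of PSAT1 and PHGDH differed between the lines, 2 called of 10, beside 21.8% of 11666 genes (10.4% higher and 11.4% lower). When an absolute log2 fold change over 1 was required as well, as in the methods of the study, 1 member was called in A549, PHGDH, beside 6.19% of genes, and 1 in H1792, PSAT1, beside 14.6%. The comparison of the lines in DMSO and both responses use the same DMSO libraries. The median log2 fold change of the members was -0.54 in A549 and -0.34 in H1792, where all genes had medians of -0.01 and 0.01. ATF3 had too few counts to be tested in A549. In H1792 51.8% of all called genes were higher with RG7112, and 75.6% when only library size was used, a scaling under which the median log2 fold change of all genes was 0.27.

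Single libraries were compared as well. The CPM of the groups did not overlap for 4 of the 9 members tested in A549, beside 32.4% of all genes tested. The corresponding figures were 8 of 10 in H1792, beside 53.3%, and 7 of 10 between the DMSO groups of the lines, beside 58.3%. With 3 libraries in each group a two-sided exact permutation test of single genes cannot give a p below 0.1, and groups that did not overlap reached that value.

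**Figure D1:**
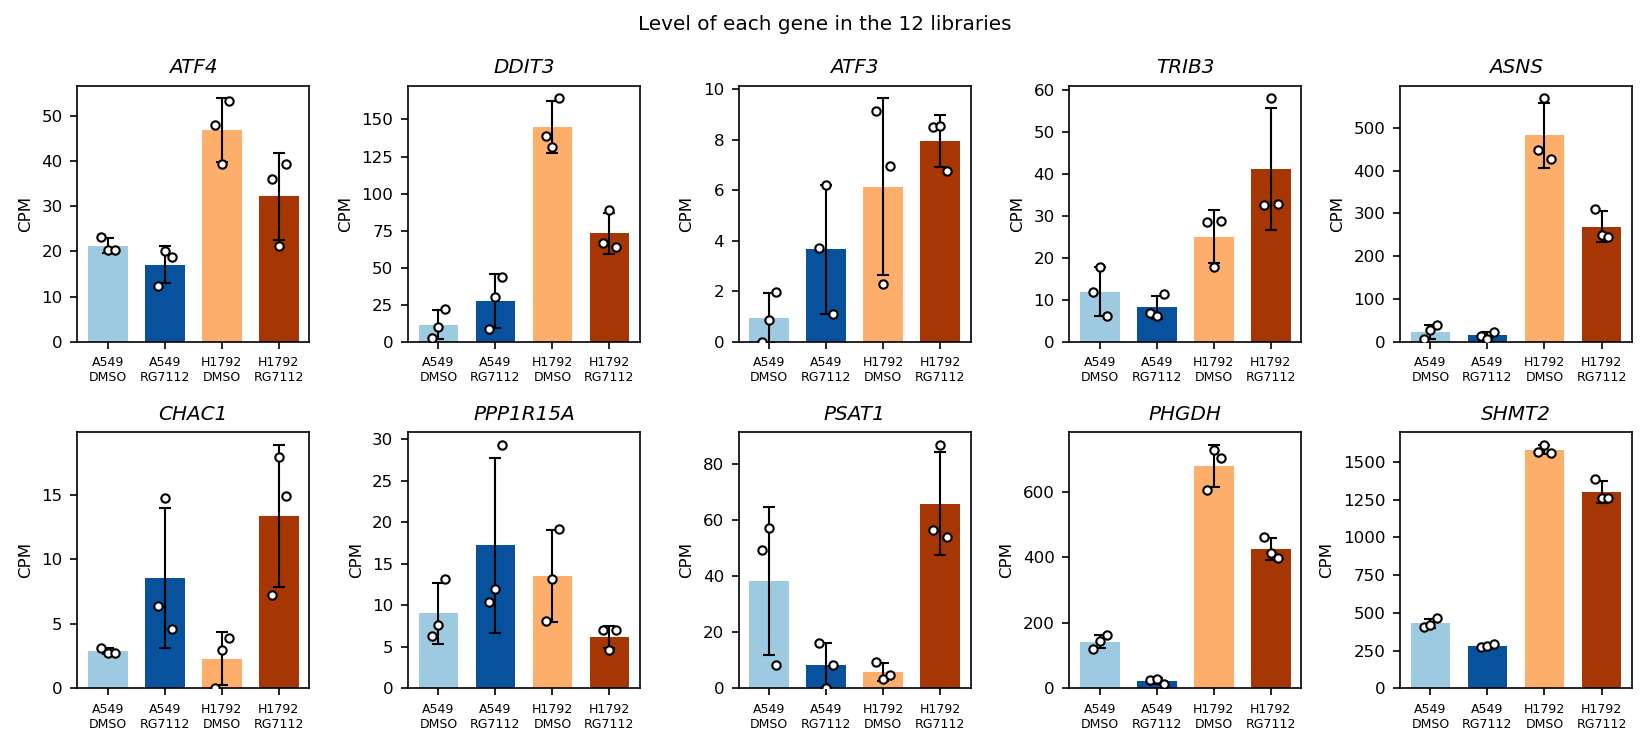
Level of each of the 10 genes in CPM (vertical axes, from 0 and on a different scale for each gene) in the 4 groups of 3 libraries. Bars are means, error bars are SDs over 3 libraries and open circles are single libraries. PHGDH and SHMT2 follow the same order of groups, H1792 DMSO, H1792 RG7112, A549 DMSO and A549 RG7112, without overlap, whereas PSAT1 was at 49.4 and 57.2 CPM in DMSO libraries 1 and 2 of A549 and at 8.22 CPM in library 3.

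ATF4 (ENSG00000128272, chr22:39519695-39522685, plus strand of GRCh38), the central transcription factor of the response, was at 23.1, 20.3 and 20.2 CPM in the DMSO libraries of A549 and at 12.4, 20.02 and 18.7 CPM with RG7112. In H1792 it was at 47.9, 39.2 and 53.2 CPM in DMSO and 35.9, 21.2 and 39.3 CPM with RG7112. All DMSO libraries of H1792 lay above all those of A549, and ATF4 was 2.20-fold lower in A549 (log2 fold change -1.14 ± 0.26 (SE), adjusted p = 0.00431, edgeR quasi-likelihood test with Benjamini-Hochberg adjustment over all genes, as for all adjusted p-values below). Neither response to RG7112 passed the test, with log2 fold changes of -0.32 ± 0.26 in A549 (adjusted p = 0.518) and -0.47 ± 0.27 in H1792 (adjusted p = 0.217). The groups did not overlap in A549 but did in H1792, where replicate 2 with RG7112 was the lowest. ATF4 has 4 annotated pseudogenes, none with an entry in the counts used here, and how the read assignment shared reads with them is not known.

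DDIT3 (ENSG00000175197, chr12:57516588-57521737, minus strand), which encodes the stress transcription factor CHOP, was at 2.81, 9.90 and 22.2 CPM in A549 DMSO and 8.37, 30.5 and 44.00 CPM in A549 with RG7112. H1792 held 139, 132 and 164 CPM in DMSO and 66.4, 88.9 and 64.2 CPM with RG7112. The H1792 groups did not overlap, whereas in A549 both groups spread widely, and replicate 3 was the highest in each treatment. DDIT3 fell 1.88-fold in H1792 (log2 fold change -0.91 ± 0.17 (SE), adjusted p = 0.00874). The increase in the mean of A549 did not pass (log2 fold change 1.23 ± 0.79 (SE), adjusted p = 0.411), and the difference between the responses, 2.19 ± 0.85 on the log2 scale, had an adjusted p of 0.0892. Over the alternatives the A549 value passed in 2 of 18, both with a replicate block (lowest adjusted p = 0.0365). The difference passed in 5 of 22, with the lowest adjusted p, 0.00492, under a replicate block. Others were DESeq2 (2.30, adjusted p = 0.0337), without A549 DMSO replicate 3 (2.97, adjusted p = 0.0256) and without A549 RG7112 replicate 1 (2.62, adjusted p = 0.0270). DDIT3 was 12.3-fold lower in A549 than in H1792 in DMSO (adjusted p = 0.000875). The call in H1792 was lost when all 12 libraries shared a fit (adjusted p = 0.237). The gene span overlaps MARS1 and MBD6 on the opposite strand. MARS1 fell in H1792 as well, from 833 to 1447 CPM to 206 to 255 CPM, and because the strand setting of the counting is not given in the sources used here, reads of DDIT3 and MARS1 cannot be told apart where they overlap.

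ATF3 (ENSG00000162772, chr1:212565334-212620777, plus strand), a stress-induced repressor of the same family, was among the lowest in counts. It was at 0, 0.853 and 1.99 CPM in A549 DMSO and 3.72, 6.20 and 1.09 CPM with RG7112, from 0 to 24 counts, and at 9.16, 2.31 and 6.98 CPM in H1792 DMSO and 8.52, 8.54 and 6.75 CPM with RG7112. The A549 groups overlapped, as did those of H1792, and the response of H1792 did not pass (log2 fold change 0.46 ± 0.51 (SE), adjusted p = 0.517). In DMSO all A549 libraries lay below all H1792 libraries (log2 fold change -2.59 ± 0.85 (SE), adjusted p = 0.0263). That call was lost without any 1 of 4 of the DMSO libraries, at an adjusted p of 0.0867 without H1792 replicate 1, 0.0830 without A549 replicate 2, 0.0583 without H1792 replicate 3 and 0.0576 without A549 replicate 1.

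The feedback regulators showed no response that passed the test in either line. TRIB3 (ENSG00000101255, chr20:362835-397559, plus strand), a pseudokinase that restrains ATF4, was at 11.9, 17.7 and 6.23 CPM in A549 DMSO, 6.97, 6.20 and 11.4 CPM in A549 with RG7112, 28.5, 17.8 and 28.8 CPM in H1792 DMSO and 32.5, 57.99 and 32.8 CPM in H1792 with RG7112. In H1792 the groups did not overlap, and the log2 fold change was 0.80 ± 0.32 (adjusted p = 0.0976). It was called higher there after the GC correction (1.20, adjusted p = 0.0422) and when only library size was used (1.06, adjusted p = 0.0471). In A549 the value was -0.54 ± 0.46 (adjusted p = 0.538), with overlapping groups. In DMSO all A549 libraries lay below all H1792 libraries for TRIB3, but the difference did not pass (log2 fold change -1.05 ± 0.40, adjusted p = 0.0516). It passed in 6 of 23 alternatives (lowest adjusted p = 0.0243). The difference between the responses of TRIB3, -1.27 ± 0.57 (adjusted p = 0.134), passed in 3 of 23 (lowest adjusted p = 0.0260). PPP1R15A (ENSG00000087074, chr19:48872392-48876057, plus strand) encodes GADD34, the phosphatase subunit that reverses eIF2α phosphorylation. It was at 6.25, 7.68 and 13.2 CPM in A549 DMSO, 10.4, 11.9 and 29.3 CPM in A549 with RG7112, 8.10, 13.2 and 19.2 CPM in H1792 DMSO and 6.97, 4.63 and 6.98 CPM in H1792 with RG7112. The means moved in opposite directions, with log2 fold changes of 0.93 ± 0.50 in A549 (adjusted p = 0.316) and -1.04 ± 0.38 in H1792 (adjusted p = 0.0760). The H1792 value passed in 1 of 18 alternatives (adjusted p = 0.0391). The difference between the responses of PPP1R15A, 2.04 ± 0.67, lay just outside the threshold (adjusted p = 0.0503). It was inside in 9 of 23 alternatives, with the lowest adjusted p under DESeq2 (2.12, adjusted p = 0.0223). The H1792 groups did not overlap, and those of A549 did.

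ASNS (ENSG00000070669, chr7:97852118-97872542, minus strand), asparagine synthetase, whose start region holds the TGATGAAA letters shown above, had the largest called fold change between the lines among the 10 genes. It was at 6.25, 26.8 and 38.4 CPM in A549 DMSO and 13.3, 7.63 and 23.4 CPM in A549 with RG7112. The levels in H1792 were 449, 569 and 428 CPM in DMSO and 310.2, 251 and 246 CPM with RG7112. Every H1792 library lay above every A549 library, and in DMSO ASNS was 19.9-fold lower in A549 (log2 fold change -4.32 ± 0.51 (SE), adjusted p = 4.47e-05). With RG7112 ASNS fell 1.70-fold in H1792 (log2 fold change -0.77 ± 0.13 (SE), adjusted p = 0.00671), a call that was lost when all 12 libraries shared a fit (adjusted p = 0.183). In A549 the groups overlapped (log2 fold change -0.68 ± 0.65 (SE), adjusted p = 0.591). The responses of the lines were not found to differ, at 0.17 ± 0.67 on the log2 scale (adjusted p = 0.891), a value whose sign turned when only library size was used (-0.23). According to the labels both lines grew in RPMI-1640, whereas the methods state DMEM for A549, and if the latter holds, medium and cell line cannot be told apart. ASNS has 4 annotated pseudogenes without entries in the counts used here.

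CHAC1 (ENSG00000128965, chr15:40952962-40956519, plus strand), a glutathione-degrading enzyme induced downstream of ATF4 and CHOP, had its higher values with RG7112 in both lines. It was at 3.12, 2.73 and 2.74 CPM in A549 DMSO and 6.35, 14.8 and 4.62 CPM in A549 with RG7112, from 10 to 41 counts. In H1792 it was at 0, 3.00 and 3.92 CPM in DMSO, 0 to 13 counts, and 7.23, 17.97 and 14.9 CPM with RG7112, 28 to 101 counts. The groups did not overlap in either line. Neither response passed the test, with log2 fold change 1.54 ± 0.52 (SE), adjusted p = 0.121 in A549 and log2 fold change 2.61 ± 0.84 (SE), adjusted p = 0.0531 in H1792. The H1792 value passed in 6 of 17 alternatives. Among them were DESeq2 (2.61, adjusted p = 0.0142), limma-trend (2.76, adjusted p = 0.0427) and the GC correction (3.09, adjusted p = 0.0410). It also passed without DMSO replicate 1 (2.05, adjusted p = 0.0343), the library with 0 counts. CHAC1 entered the H1792 fit through its treated libraries.

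PHGDH (ENSG00000092621, chr1:119648411-119744226, plus strand), phosphoglycerate dehydrogenase, the entry step of serine synthesis, had the larger of the 2 called responses in A549. It was at 121, 144 and 163 CPM in A549 DMSO and 24.8, 29.1 and 12.2 CPM with RG7112. H1792 held 605, 728 and 701 CPM in DMSO and 461, 413 and 397 CPM with RG7112. No groups overlapped, and every treated library lay below every DMSO library of its line. PHGDH fell 6.53-fold in A549 (log2 fold change -2.71 ± 0.33 (SE), adjusted p = 0.00426) and 1.52-fold in H1792 (log2 fold change -0.60 ± 0.0884 (SE), adjusted p = 0.00506), where the value lay between -0.68 and -0.34 over the alternatives with a highest adjusted p of 0.0556. The fall was larger in A549, by 2.04 ± 0.33 on the log2 scale (interaction over all 12 libraries, adjusted p = 0.00251). In DMSO PHGDH was 4.75-fold lower in A549 than in H1792 (adjusted p = 1.67e-05). Leaving out each A549 library in turn gave -2.92 to -2.41 for the A549 value, with the call kept each time.

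PSAT1 (ENSG00000135069, chr9:78297143-78330093, plus strand), phosphoserine aminotransferase, follows PHGDH in the pathway and showed another pattern. It was at 49.4, 57.2 and 8.22 CPM in A549 DMSO (158, 335 and 33 counts) and 16.3, 0 and 8.15 CPM in A549 with RG7112 (105, 0 and 30 counts). In H1792 it was at 9.51, 3.23 and 4.80 CPM in DMSO (27, 14 and 11 counts) and 56.6, 86.8 and 54.01 CPM with RG7112 (219, 488 and 232 counts). All treated H1792 libraries lay above all H1792 DMSO libraries, and PSAT1 rose 12.05-fold (log2 fold change 3.59 ± 0.43 (SE), adjusted p = 0.00336). In A549 the groups overlapped since DMSO replicate 3 lay below RG7112 replicate 1, and the value did not pass (log2 fold change -2.13 ± 1.04 (SE), adjusted p = 0.270). The 0 counts of A549 RG7112 replicate 2 allow a level of up to 1.43 CPM, from counting error only. The responses differed by -5.62 ± 1.26 on the log2 scale (adjusted p = 0.0116) and by -6.00 without both A549 libraries numbered 3 (adjusted p = 0.00792). Over all alternatives this difference lay between -6.61 and -5.01, with a highest adjusted p of 0.0699. The DMSO groups of the lines overlapped for PSAT1, since A549 replicate 3 (8.22 CPM) lay below H1792 replicate 1 (9.51 CPM). In DMSO PSAT1 was 6.63-fold higher in A549 (log2 fold change 2.73 ± 0.91 (SE), adjusted p = 0.0289), the reverse of the other called members. That call was lost without any 1 of 4 of the DMSO libraries, with adjusted p = 0.101 without H1792 replicate 2, 0.0899 without A549 replicate 2, 0.0809 without H1792 replicate 3 and 0.0691 without A549 replicate 1, and also with limma-trend (2.33, adjusted p = 0.109).

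The A549 libraries numbered 3 bear on PSAT1. In DMSO, A549 replicates 1 and 2 exceeded replicate 3 by 2.55 on the log2 scale for PSAT1, while with RG7112 the same difference was -1.14. After the GC correction the log2 fold change of PSAT1 in H1792 was 3.19 (adjusted p = 0.00505) and over all alternatives it lay between 3.19 and 4.16. PSAT1 transcripts have a GC content of 42.3%, the lowest of the 10 genes. PSAT1 also has 4 annotated pseudogenes without entries in the counts used here, and how the read assignment shared reads with them is not known.

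SHMT2 (ENSG00000182199, chr12:57229327-57234935, plus strand), mitochondrial serine hydroxymethyltransferase, varied least between replicates. It was at 404, 422 and 465 CPM in A549 DMSO and 273, 278 and 296 CPM with RG7112. Its levels in H1792 were 1567, 1615 and 1559 CPM in DMSO and 1386, 1258 and 1261 CPM with RG7112. No groups overlapped in any comparison. SHMT2 fell 1.52-fold in A549 (log2 fold change -0.61 ± 0.12 (SE), adjusted p = 0.0227), a call that was lost without A549 DMSO replicate 1 (adjusted p = 0.0742), DMSO replicate 2 (0.0946), RG7112 replicate 1 (0.0999) or RG7112 replicate 2 (0.1001). In H1792 it fell 1.15-fold (log2 fold change -0.21 ± 0.0600 (SE), adjusted p = 0.0388). This direction depends on the scaling, since the value was 0.053 when only library size was used (all genes then had the median of 0.27 given above) and 0.065 after the GC correction. The call was also lost with no filter on low counts (adjusted p = 0.107) and when every library needed at least 10 counts (adjusted p = 0.0907), and 5 of the 6 left-out libraries ended the call, all but RG7112 replicate 1 (adjusted p = 0.0920 to 0.125). The lines differed by 3.67-fold in DMSO, lower in A549 (adjusted p = 4.57e-08). The difference between the responses of SHMT2, -0.33 ± 0.12 (SE) on the log2 scale, did not pass (adjusted p = 0.0710). It passed in 6 of 23 alternatives (lowest adjusted p = 0.000352). The gene span overlaps NDUFA4L2 on the opposite strand. As the strand setting of the counting is not given, reads of the 2 genes cannot be told apart where they overlap.

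**Figure D2:**
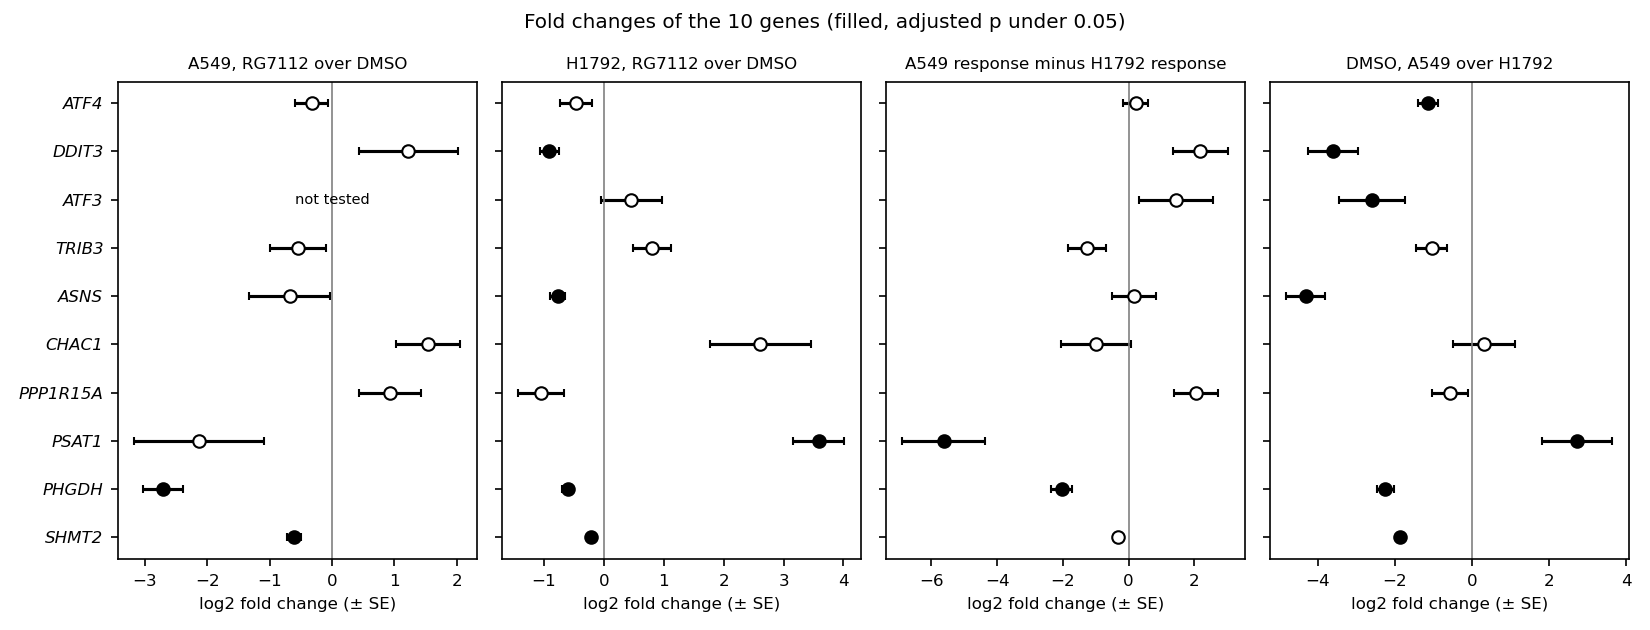
Log2 fold changes of the 10 genes (points) with their SE (bars) in 4 comparisons, one for each panel, with a separate horizontal scale in each. Filled points had an adjusted p under 0.05. PSAT1 lies at -2.13 in A549 without passing the test and at 3.59 in H1792, while PHGDH lies at -2.71 and -0.60.

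**Figure D3:**
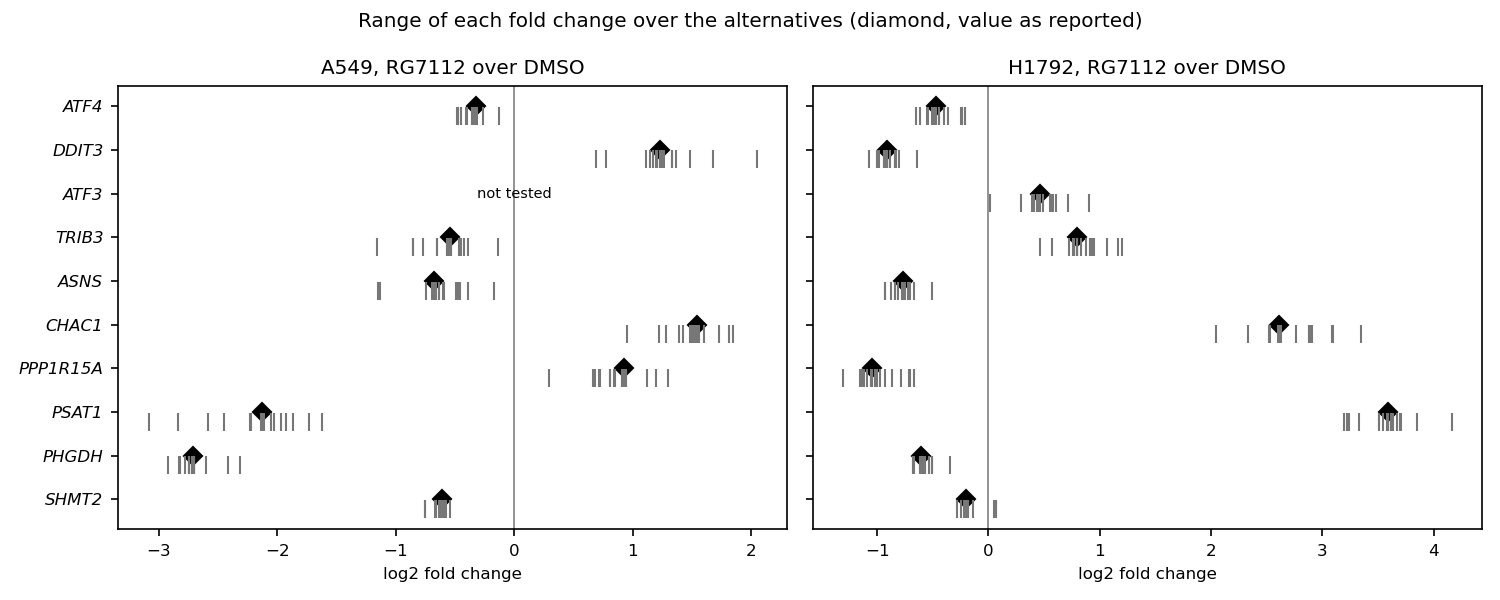
Log2 fold changes of the 10 genes in A549 and H1792 as reported (diamonds) and under every alternative (ticks below them). Horizontal axes are log2 fold changes, RG7112 over DMSO. The ticks of SHMT2 in H1792 fall on both sides of 0, whereas those of PSAT1 in H1792 lie between 3.19 and 4.16.

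Across the 6 libraries of each line the 10 genes did not share a single profile. Of their 45 pairs, 22 had a positive Pearson correlation of log2(CPM + 1) in A549 and 21 in H1792, with medians of -0.04 and -0.28. In H1792 every pair within ATF4, DDIT3, ASNS, PPP1R15A, PHGDH and SHMT2 was positive, as was every pair within ATF3, TRIB3, CHAC1 and PSAT1. Every pair across these sets was negative, and the means of the first set were lower with RG7112, those of the second higher. The correlations are descriptions, since the libraries share the treatment groups. Over 7093 genes, those most like ATF4 by the lower of its correlations in the 2 lines were PSMA7, a proteasome subunit (0.843), UBXN6 (0.836) and NACA, a chaperone of nascent chains (0.836). Those most like ASNS were the mitochondrial helicase SUPV3L1 (0.972), ARMH3 (0.960) and TIMM44, of the mitochondrial import machinery (0.956). With Spearman's correlation 1 of the 3 for ATF4 and 0 of the 3 for ASNS stayed among the choices.

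The genes of 6 related lists were set beside the members, with the percentages of all genes called given above as their background.

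The kinases and translation factors upstream of ATF4 were called in both directions in H1792, as all genes were (17.7% higher and 16.5% lower). Of 14 tested sensors and eIF2 subunits, 1 fell and 0 rose in A549, beside 8.38% of all genes called. In H1792 3 rose and 2 fell, beside 34.1%. EIF2S1, which encodes eIF2α itself, fell in A549 from 49.7 to 69.5 CPM to 19.8 to 30.5 CPM (log2 fold change -1.13 ± 0.25 (SE), adjusted p = 0.0362), and the response differed from that of H1792 by -1.11 (adjusted p = 0.0113), a difference that did not pass after the GC correction (-0.36, adjusted p = 0.312). EIF2AK4, the amino acid sensor GCN2, fell in H1792 from 36.2 to 62.3 CPM to 8.36 to 13.7 CPM (log2 fold change -2.02 ± 0.31 (SE), adjusted p = 0.00557). EIF2AK1, the heme-regulated kinase HRI, rose in H1792 from 1.15 to 2.11 CPM to 6.46 to 14.4 CPM (log2 fold change 2.56 ± 0.49 (SE), adjusted p = 0.0102). Its DMSO libraries there held 4 to 6 counts, so it entered the fit only through the treated libraries, with 25 to 62 counts. EIF2B2, a subunit of the exchange factor of eIF2, fell by 0.30 on the log2 scale in H1792 (adjusted p = 0.0180), a call that was lost when only library size was used (-0.038, adjusted p = 0.707) and with no filter on low counts (adjusted p = 0.0522). The groups of each of these genes did not overlap in the line named.

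Among other transcription factors and regulators around ATF4, 2 of 10 tested rose and 0 fell in A549, beside 8.38% of all genes called. In H1792 4 of 12 rose and 1 fell, beside 34.1%. GDF15, a secreted stress cytokine that is also a p53 target, rose in A549 from 512 to 587 CPM to 934 to 1274 CPM (log2 fold change 0.98 ± 0.15 (SE), adjusted p = 0.0106). NUPR1, a stress-inducible chromatin protein, rose in A549 from 34.98 to 47.1 CPM to 89.1 to 132 CPM (log2 fold change 1.36 ± 0.22 (SE), adjusted p = 0.0127). Both responses differed from those of H1792, by 0.91 (adjusted p = 0.00697) and 2.05 (adjusted p = 0.00132). After the GC correction the difference of GDF15 was 0.24 and did not pass (adjusted p = 0.134). In H1792 the calls with the smallest p included HERPUD1, of protein degradation at the endoplasmic reticulum (0.58, adjusted p = 0.00714), NFE2L2, the oxidative stress factor NRF2 (0.64, adjusted p = 0.0141), and XBP1, of the unfolded protein response (0.40, adjusted p = 0.00800). After the GC correction the direction of XBP1 turned (-0.041) and the call of NFE2L2 was lost (0.41, adjusted p = 0.0576).

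Amino acid transporters, several of them known ATF4 targets, were called in one line or the other. Of 9 tested, 2 fell and 0 rose in A549, beside 8.38% of all genes called, and 4 rose and 2 fell in H1792, beside 34.1%. SLC3A2, the heavy chain shared by several amino acid exchangers, was at 535, 566 and 492 CPM in A549 DMSO and 162, 157 and 179 CPM with RG7112 (log2 fold change -1.68 ± 0.12 (SE), adjusted p = 0.000700). SLC1A5, a glutamine carrier, was at 927, 1005 and 1028 CPM in A549 DMSO and 375, 352 and 419 CPM with RG7112 (log2 fold change -1.37 ± 0.12 (SE), adjusted p = 0.00147). Neither A549 group pair overlapped, both calls held without each library in turn, and both responses differed from those of H1792 (adjusted p = 3.12e-05 and 0.000269). SLC38A2, a neutral amino acid carrier, rose in H1792 from 10.2 to 20.9 CPM to 82.7 to 124 CPM (log2 fold change 2.82 ± 0.32 (SE), adjusted p = 0.00316), as did its relative SLC38A1 (log2 fold change 2.23 ± 0.44 (SE), adjusted p = 0.0106). SLC38A1 held 4 to 10 counts in the DMSO libraries of H1792 and entered the fit only through the treated libraries, with 32 to 55 counts. SLC7A5, the large neutral amino acid exchanger that pairs with SLC3A2, fell in H1792 from 2915 to 3532 CPM to 906 to 1690.0 CPM (log2 fold change -1.32 ± 0.24 (SE), adjusted p = 0.00851).

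The cytosolic aminoacyl-tRNA synthetases, which charge tRNAs with amino acids, split in H1792. There 5 of 20 tested rose and 6 fell, beside 17.7% and 16.5% of all genes. In A549 1 of 18 fell and 0 rose, beside 8.38% of all genes called. The A549 call was RARS1, for arginine (log2 fold change -1.39 ± 0.27 (SE), adjusted p = 0.0225). In H1792 MARS1, for methionine, fell (log2 fold change -2.23 ± 0.19 (SE), adjusted p = 0.00272), as did EPRS1, for glutamate and proline (log2 fold change -1.15 ± 0.13 (SE), adjusted p = 0.00309), while IARS1, for isoleucine, rose from 44.4 to 49.2 CPM to 139 to 224 CPM (log2 fold change 2.06 ± 0.19 (SE), adjusted p = 0.00272).

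MTHFD2, among the enzymes that carry serine carbon onward, was called in opposite directions in the lines. Of 17 tested serine, glycine and folate enzymes, 1 rose and 2 fell in A549, beside 8.38% of all genes called. In H1792 2 rose and 1 fell, beside 34.1%. MTHFD2 is described first. This mitochondrial folate enzyme, which acts after SHMT2, was at 43.1, 46.1 and 42.1 CPM in A549 DMSO and 21.9, 22.9 and 11.1 CPM with RG7112. Its H1792 levels were 90.9, 83.3 and 97.7 CPM in DMSO and 188, 192 and 197 CPM with RG7112. The groups did not overlap in either line, and MTHFD2 fell in A549 (log2 fold change -1.24 ± 0.30 (SE), adjusted p = 0.0489) and rose in H1792 (log2 fold change 1.17 ± 0.0962 (SE), adjusted p = 0.00272), a difference of -2.33 ± 0.29 (adjusted p = 0.000630). The A549 call was lost when only library size was used (adjusted p = 0.0670), with no filter on low counts (0.0578) and without any A549 library but RG7112 replicate 3 (0.0889 to 0.149). SHMT1, the cytosolic counterpart of SHMT2, fell in A549 from 58.3 to 95.6 CPM to 24.4 to 31.2 CPM (log2 fold change -1.53 ± 0.24 (SE), adjusted p = 0.0108), and FPGS, which retains folates in the cell, rose (log2 fold change 0.90 ± 0.20 (SE), adjusted p = 0.0390). In H1792 MTHFD1, the cytosolic folate enzyme, fell from 150.4 to 183 CPM to 11.6 to 37.5 CPM (log2 fold change -2.92 ± 0.44 (SE), adjusted p = 0.00557), and SFXN1, a mitochondrial serine carrier, rose (log2 fold change 1.24 ± 0.21 (SE), adjusted p = 0.00664). PSPH, the final enzyme of serine synthesis, did not pass in A549 (0.04, adjusted p = 0.906) or H1792 (0.13, adjusted p = 0.234), and is named here because it completes the pathway of PHGDH and PSAT1.

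**Figure D4:**
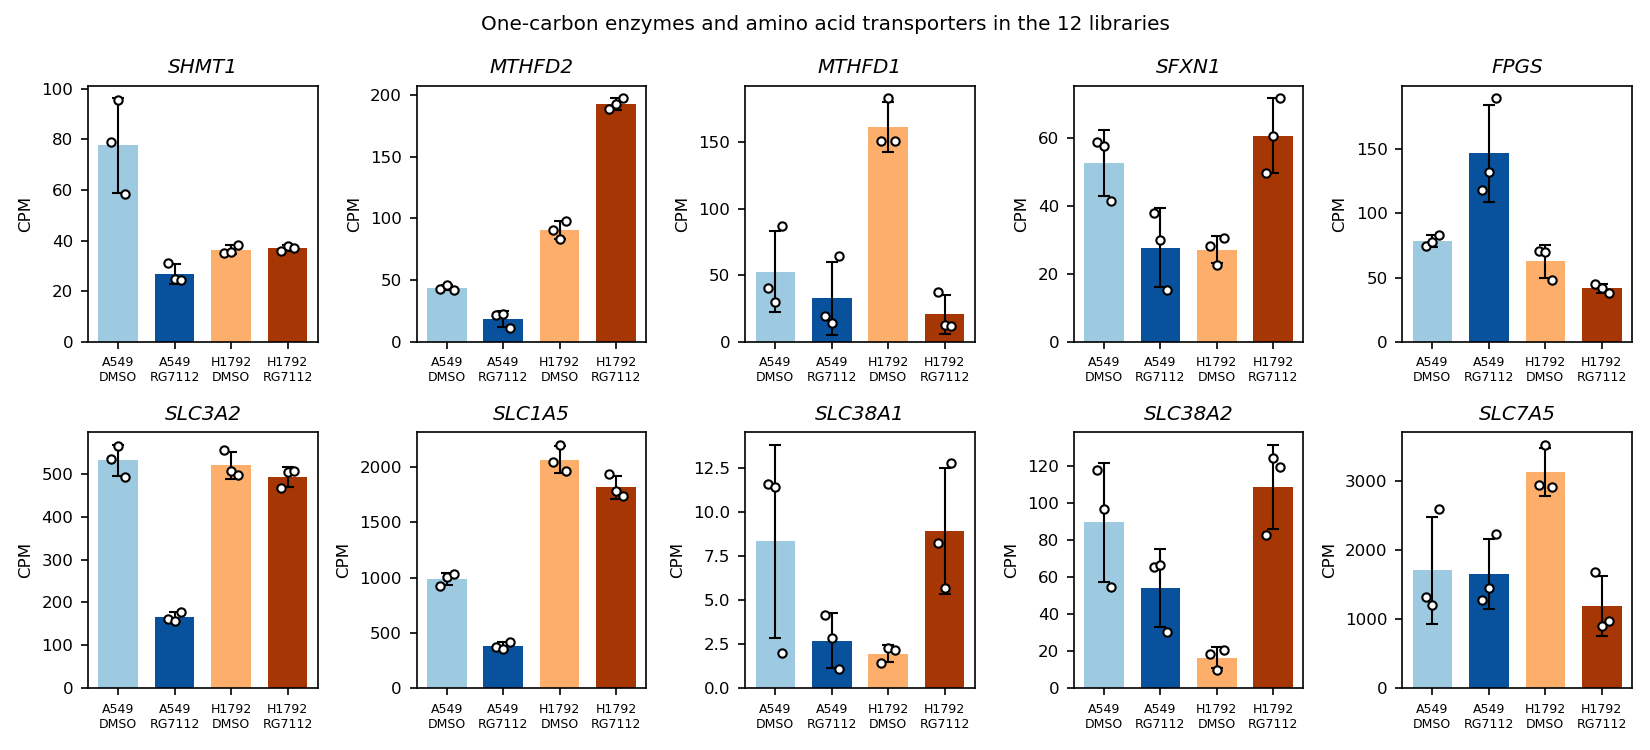
Levels in CPM (vertical axes, from 0) of 5 one-carbon genes in the upper part and 5 amino acid transporters in the lower part, in the 4 groups of 3 libraries. Bars are means, error bars SDs and circles single libraries. MTHFD2 was at 11.1 to 22.9 CPM in A549 with RG7112 and at 188 to 197 CPM in H1792 with RG7112, and SLC3A2 at 157 to 179 and 466 to 507 CPM.

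Among 10 proline, aspartate and transaminase enzymes, 0 were called in A549 by edgeR, where 1 had an unadjusted p under 0.05, and 0 by DESeq2. In H1792 4 rose and 1 fell. Of all genes edgeR called 8.38% in A549 and 34.1% in H1792. The calls in H1792 included GLUL, glutamine synthetase (log2 fold change 0.49 ± 0.0724 (SE), adjusted p = 0.00506), BCAT1, of branched-chain amino acids (log2 fold change 0.69 ± 0.14 (SE), adjusted p = 0.0117), and GOT2, the mitochondrial aspartate transaminase (adjusted p = 0.0156). The calls of GLUL (0.19, adjusted p = 0.126) and BCAT1 (0.099, adjusted p = 0.632) were lost after the GC correction, and that of BCAT1 also when all 12 libraries shared a fit (0.61, adjusted p = 0.162). GOT2 held 0 to 15 counts in the DMSO libraries of H1792 and 56 to 512 with RG7112. It entered the H1792 fit through its treated libraries, and its fitted log2 fold change of 5.36 ± 1.17 (SE) depends on a group near 0. As with PSAT1, DMSO replicate 3 was the lowest of the A549 DMSO libraries for GOT2, which was at 112, 116 and 4.73 CPM in A549 DMSO, 45.9, 75.8 and 6.25 CPM in A549 with RG7112, 5.29, 0.462 and 0 CPM in H1792 DMSO and 14.5, 86.1 and 119 CPM in H1792 with RG7112. It has 4 annotated pseudogenes without entries in the counts used here.

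**Figure D5:**
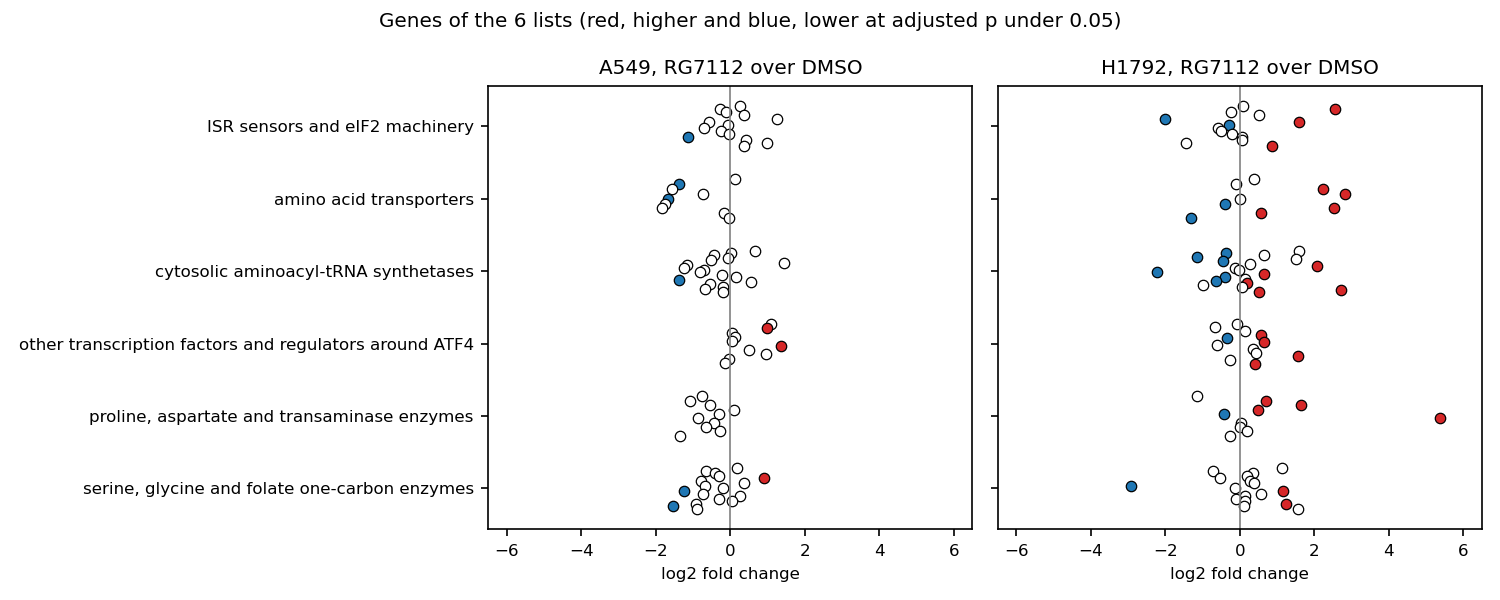
Log2 fold changes (horizontal axes, RG7112 over DMSO) of the tested genes of the 6 lists in A549 and H1792, a point for each gene. Red points were higher and blue points lower at an adjusted p under 0.05, and open points did not pass. A549 had 3 higher and 6 lower calls among 78 tested genes of the lists, beside 8.38% of all genes called. H1792 had 22 higher and 13 lower among 82, beside 34.1%.

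Leaving out each library of a line in turn, SLC3A2 and SLC1A5 kept their calls in A549 each time, and the other 7 of the 9 called list genes lost them at least once. The losses, with the highest adjusted p, were EIF2S1 in 6 of 6 (up to 0.105 without RG7112 replicate 1), GDF15 in 2 of 6 (up to 0.0631 without DMSO replicate 2), NUPR1 in 2 of 6 (up to 0.0706 without DMSO replicate 2), RARS1 in 5 of 6 (up to 0.0856 without DMSO replicate 1), SHMT1 in 3 of 6 (up to 0.0529 without RG7112 replicate 2), FPGS in 5 of 6 (up to 0.141 without DMSO replicate 1) and MTHFD2 in 5 of 6 (up to 0.149 without DMSO replicate 2). In H1792 14 of the 18 named genes kept their calls each time, and the others lost them, EIF2B2 in 2 of 6 (up to 0.0633 without RG7112 replicate 3), NFE2L2 in 1 of 6 (up to 0.0508 without RG7112 replicate 2), BCAT1 in 1 of 6 (up to 0.0512 without RG7112 replicate 2) and GOT2 in 2 of 6 (up to 0.0576 without DMSO replicate 2).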

How the data were processed

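Poly-A RNA of the 12 libraries was sequenced in pairs. The authors pseudoaligned reads to the Ensembl human transcriptome GRCh38.95 with kallisto 0.45.0 and summed transcripts to genes, and they deposited estimated counts as whole numbers without normalization. The labels give reads of 38 bases and the methods another length. Most of the study's text gives A549 as p53 wild type and H1792 as mutant, although one sentence has them reversed.

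Each line was fitted separately in edgeR 4.0.16 (R 4.3.3): filterByExpr (minimum count 10, total 15), TMM, robust quasi-likelihood fit and Benjamini-Hochberg adjustment over all genes, with calls at 0.05. A fit of all 12 libraries gave the difference between the responses and the difference between the lines in DMSO. The steps were tested on simulated data. DESeq2 1.42.0, the tool of the study's methods, limma 3.58.1 and other settings were alternatives. The GC correction was a loess curve (span 0.5) of log counts on gene GC content. CPM used TMM library sizes of all 12 libraries. Single genes were compared by exact permutation of log2(CPM + 1). No column was left out. Positions and GC content are from GENCODE 29.

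The members and lists were chosen with earlier results of these data known. Named genes were the members, in each list the 3 smallest p in each line among calls and any call in both lines, the 3 genes most like ATF4 and ASNS (mean CPM of at least 10), and CDKN1A and MDM2. PSPH was added after its values were seen. EIF2S2, PPP1R15B, CEBPB, SESN2, DDIT4, VLDLR and FARSB were not analysed here.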

Additional observations from a re-analysis of the deposited data

Results flagged for a closer look

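The response to RG7112 differed between the cell lines, by the interaction over all 12 libraries (edgeR quasi-likelihood test with Benjamini-Hochberg adjustment), for PSAT1 and PHGDH among the members and for 19 of the named list genes. The members made 2 of 10, and the 6 lists 8 higher and 19 lower of 83 tested, beside 21.8% of 11666 genes. Named list genes were picked by small p within a line, so their number here is not a test. Each value is the A549 response less the H1792 response on the log2 scale, with the adjusted p in parentheses. They were PSAT1 -5.62 (0.0116) and PHGDH -2.04 (0.00251) for the members. MTHFD2, called in opposite directions in the lines, had a value of -2.33 (0.00063).

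Among the other list genes the response of A549 was the lower one for EIF2AK1 -2.75 (0.0288), EIF2S1 -1.11 (0.0113), XBP1 -0.48 (0.0229), SLC3A2 -1.60 (3.12e-05), SLC1A5 -1.18 (0.000269), SLC38A1 -3.73 (0.0194), SLC38A2 -3.47 (0.00218), IARS1 -3.14 (0.00148), RARS1 -1.45 (0.0232), SHMT1 -1.55 (0.00346), SFXN1 -2.08 (0.00782), GOT2 -6.16 (0.0397) and BCAT1 -1.62 (0.0331). It was the higher one for EIF2AK4 3.33 (0.00695), NUPR1 2.05 (0.00132), GDF15 0.91 (0.00697), MARS1 1.51 (0.0306) and FPGS 1.51 (0.00509). In the DMSO libraries of H1792 EIF2AK1 held 4 to 6 counts, SLC38A1 4 to 10 and GOT2 0 to 15. Their values therefore depend on a group near 0. Leaving out each library in turn, calls were lost for EIF2AK1 without 6 of 12 libraries (up to 0.0768, without H1792 DMSO replicate 2), XBP1 without 2 of 12 libraries (up to 0.0548, without H1792 DMSO replicate 2), MARS1 without 9 of 12 libraries (up to 0.0752, without H1792 DMSO replicate 2), RARS1 without 5 of 12 libraries (up to 0.0563, without H1792 DMSO replicate 2), GOT2 without 8 of 12 libraries (up to 0.0969, without H1792 DMSO replicate 2) and BCAT1 without 7 of 12 libraries (up to 0.0748, without A549 RG7112 replicate 3). After the GC correction the value of XBP1 turned to 0.16, and calls were lost for GDF15 (0.24, adjusted p = 0.134), EIF2S1 (-0.36, adjusted p = 0.312), BCAT1 (-0.81, adjusted p = 0.223), RARS1 (-0.78, adjusted p = 0.165) and MARS1 (1.28, adjusted p = 0.0661). The call of BCAT1 was also lost without both A549 libraries numbered 3 (-1.15, adjusted p = 0.113), that of MARS1 when only library size was used (adjusted p = 0.0525), and that of GOT2 with limma-trend (adjusted p = 0.0565) and with no filter on low counts (adjusted p = 0.0566). The cause of these differences was not tested.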

How the results depend on the processing

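Over the alternatives, PHGDH kept its calls in A549 (-2.92 to -2.31) and for the difference between the responses (-2.41 to -1.65). PSAT1 kept its call in H1792 (3.19 to 4.16). Of the values of members under an alternative, 711 kept direction and side of the threshold, 38 left the called side, 40 entered it and 11 reversed. ATF3, CHAC1 and PSAT1 each had a library at 0 counts, and the part of depth in this was not tested.

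In A549 900 genes were called, 1438 with DESeq2, 1557 with all 12 libraries in one fit and 296 at an adjusted p under 0.01, where 1 member was called, as with an absolute log2 fold change over 1. Leaving out each library gave 321 (without DMSO replicate 2) to 725 genes and 1 to 2 members. In H1792 3384 genes were called, 1383 at an adjusted p under 0.01, 1450 with the fold threshold (1 member) and 1851 (without RG7112 replicate 2) to 3377 without each library. For the difference between the responses 2539 genes and 2 members were called, 848 and 1 at an adjusted p under 0.01. Leaving out each library gave 1584 (without A549 DMSO replicate 1) to 2978 genes and 2 to 5 members. There 5 members were called with DESeq2, 4 with the GC correction and 5 without both A549 libraries numbered 3. In DMSO 5546 genes and 7 members were called, and 3526 and 4 when every library needed at least 10 counts, a setting that tested 6 members. Spearman's correlation shared 1 of the 3 genes most like ATF4 and 0 of those most like ASNS. With library size only, 23.0% of called differences between the responses were higher, not 47.7%. Between the lines in DMSO it was 65.1%, not 53.8%, the medians of all genes being -0.37 and 0.35.

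Replicate numbers were not taken as pairs, since deviations of same-numbered libraries correlated at 0.06 to 0.27 in A549 and -0.02 to 0.00346 in H1792. Those of differently numbered libraries correlated at -0.21 to 0.14 in A549 and -0.02 to 0.02 in H1792. The 0.27 was that of the A549 libraries numbered 3, and whether same-numbered A549 libraries share a batch was not tested. With a replicate block 1840 genes were called in H1792. For the difference between the responses 4 members were called, where DDIT3 (2.34, adjusted p = 0.00492, edgeR) and PPP1R15A (1.93, adjusted p = 0.0314) entered. DDIT3 also entered in A549 (1.36, adjusted p = 0.0413), SHMT2 was lost in H1792 (adjusted p = 0.129) and ATF3 in DMSO (adjusted p = 0.0542). With the replicate block and the GC correction 886 genes and 2 members were called in H1792. The responses differed for 1668 genes and no longer for PSAT1 (-5.01, adjusted p = 0.0699). In H1792 PHGDH (-0.50, adjusted p = 0.0556) and DDIT3 (-0.94, adjusted p = 0.0547) left the called side. Of 72 called values of the other named genes, 8 left it with the block and 19 with the block and the GC correction, where 2 more reversed.

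Reversed values were SHMT2 in H1792 (0.053 by library size, 0.065 with the GC correction, with or without the block) and XBP1 in H1792 (-0.041 with the GC correction, -0.044 with the block as well). Reversed differences between the responses were those of XBP1 (0.16 with the GC correction, with or without the block), ATF4 (-0.19 by library size, -0.18 with the GC correction, -0.15 with the block as well, and -0.061 to 0.37 over left-out libraries) and ASNS (-0.23 by library size, -0.29 to 0.64 over left-out libraries). Between the lines in DMSO CHAC1 reversed (-0.27 to 0.78 over left-out libraries). The cause was not tested.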
